A study of Mus musculus with 70 samples.

Results

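RENCA cell lines that had been through a single round of growth in mice were compared by the route of injection. RENCA is a renal adenocarcinoma line of BALB/c mice, here marked with GFP, and the host animals were wild-type female BALB/c mice. Of the 65 RNA samples of the series, 10 were compared, 5 in each group, and all were after passage 1 (P1). In the KPT group (replicates 1 to 5), 100000 cells had been placed under the capsule of the kidney and the line was grown out of the primary tumour there. In the T-LM group, cells had been injected into the tail vein and the line was grown out of lung metastases. The labels give 500000 cells for this injection and the methods of the study a larger number, so the dose of the T-LM group is uncertain. T-LM held replicates 2 to 5 and a sample titled LOT1, whose title names neither a route nor a replicate number and whose other labels place it with the tail-vein lung metastases. Members were taken by these labels alone, and each result is given with LOT1 and, where it moves, without it. Each line was an explant culture kept for some weeks until GFP-negative cells were no longer seen, so the arrays measured cultured cells and not tissue. KPT and T-LM differ in the organ, the number of cells injected and the way in which cells reached the organ. Comparing these groups cannot tell these apart.

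Transplanted tumour cells meet different surroundings in the kidney capsule and in the capillary bed of the lung. Interferons, which cells release when they sense viruses or tumour DNA, switch on a broad set of antiviral and antigen-presenting genes through the STAT and IRF factors. Cytokines of the IL-6 family act through STAT3 and raise acute-phase proteins such as serum amyloid A, which are made mainly by liver but also by tumour cells. Tumours also hold macrophages and fibroblasts of the host, which may persist for some time in an explant culture.

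Expression was measured on single-colour Agilent mouse arrays. A level is a log2 background-corrected signal from which the 75th percentile of that array was taken off, so that 0 is as bright as the percentile and a difference of 1 is a 2-fold change. Between 27.6 and 55.3% of the probes of an array were well above background, the highest share being that of T-LM replicate 2, and the 75th percentile of signal over all probes ran from 181.2 to 855.7 intensity units. A probe was tested when it was well above background on at least 2 of the 10 arrays. The 10 arrays lay on 8 slides of one scan day, and 2 slides held a sample of each group. Keratin 8 (Krt8) and keratin 18 (Krt18), markers of the RENCA epithelium, were bright on all 10 arrays, with Krt8 levels from 1.03 to 1.60 and Krt18 levels from 2.85 to 3.87. Pax8, a transcription factor of renal epithelium, was well above background on all 10, with levels from -3.61 to -2.51. Of 12 markers of lung epithelium, 3 were above background on at least 2 arrays, and Scgb3a2, Ager and Nkx2-1 were above it on none.

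The samples did not fall into 2 groups by route. On the first principal component (40.8% of the variance of 22854 probes), LOT1 lay at -102.6, KPT replicates 1 and 2 at -75.2 and -74.4, and the unpassaged line (P0, 2 samples projected onto the same axes) at -85.9 and -73.5. KPT replicate 3 lay at -2.1, T-LM replicate 2 at 19.3, and KPT replicates 4 and 5 with T-LM replicates 3 to 5 lay between 44.6 and 51.6. The second component (18.3%) set T-LM replicate 2 apart at -103.2. Across probes, LOT1 correlated at 0.973 and 0.968 with the P0 samples and at 0.928 to 0.934 with T-LM replicates 3 to 5, which correlated at 0.987 to 0.991 among themselves. The series holds 1 K-LM sample of P1, with 100000 cells placed under the kidney capsule and the line grown out of lung metastases. Projected likewise, it lay at 69.9 on the first component. It correlated at 0.986 to 0.99 with T-LM replicates 3 to 5, 0.942 with replicate 2 and 0.911 with LOT1. With the KPT samples it correlated at 0.934 to 0.974. What organ, dose and route each add was not tested. Correlations are over probes, which are not independent replicates. The share of the total variance that lay between the routes was 15.5% with all 10 samples, 23.8% without LOT1 and 31.1% without LOT1 and T-LM replicate 2.

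**Figure D1:**
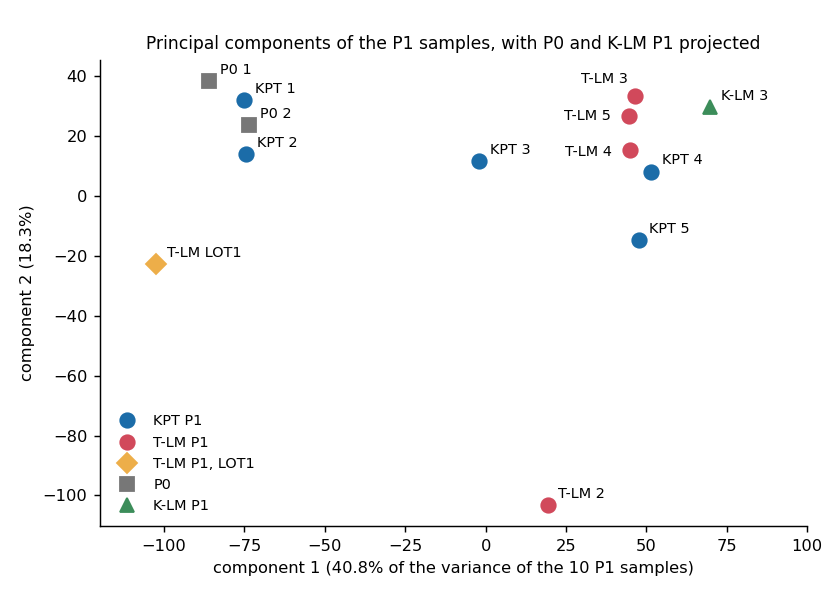
Principal components of the P1 samples: each point is a sample, the horizontal axis is component 1 (40.8% of the variance) and the vertical axis component 2 (18.3%), both in units of summed log2 level. The P0 samples and the K-LM sample of P1 are projected onto the same axes. LOT1 and KPT replicates 1 and 2 lie near the P0 samples at the left, and T-LM replicate 2 lies alone at -103.2 on component 2.

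The first question was which genes differed between the routes after 1 passage. With all 10 samples, 1 of 23145 probes passed the threshold of the study, an adjusted p of 0.01 or less in limma (0.00432% of the probes tested), and it was higher in T-LM. At an adjusted p of 0.05 or less there were 6 probes (0.0259%), all higher in T-LM, of which 4 have a gene symbol, namely Gm9112, 1700018G05Rik, Dpep1 and Ly6a. Without adjustment, 2113 probes had a p under 0.05 (9.13%). Among the 12492 gene symbols tested, each taken at its brightest probe, the 5 values of one group lay above the 5 of the other for 130 symbols in T-LM (1.04%) and for 117 in KPT (0.937%). The count of 1 rests on the spread of these 10 samples. When the spread was estimated from all 62 arrays of the same set, 129 probes passed (82 higher in T-LM), and with slide as a fixed term in that fit 89 passed (53 higher).

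Gm9112, a predicted gene with no described role, carried the probe that passed. Its levels were -8.79, -9.07, -7.80, -8.10 and -9.29 in KPT replicates 1 to 5, -5.58, -5.18, -5.40 and -5.06 in T-LM replicates 2 to 5, and -4.55 in LOT1. The 5 T-LM samples were all above the 5 KPT samples, and LOT1 was the highest. The probe was not well above background on any KPT array, so the ratio is given as at least 2.77-fold higher in T-LM (fitted difference 3.46 ± 0.31 SE, adjusted p = 0.00928, limma). Such a ratio sets the mean of the bright group against the detection limit of each dim array, which is the lowest signal well above background there. The difference between T-LM and KPT was 3.74 on one of the slides with both groups and 4.74 on the other. A second, dimmer probe of Gm9112 differed by 0.18 ± 0.52 (adjusted p = 0.936), so the probes of this gene disagree. The call was lost under most alternatives. A stricter limit, the highest detection limit of any of the 10 arrays (a level of -5.62), set as a common floor for dim values, left a difference of 0.47 (adjusted p = 0.599).

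Dpep1 encodes renal dipeptidase, a membrane enzyme of the proximal tubule that cleaves dipeptides and leukotriene D4. Its levels were -7.37, -7.08, -6.70, -6.50 and -6.07 in KPT replicates 1 to 5, -4.13, -4.47, -3.88 and -4.52 in T-LM replicates 2 to 5, and -4.71 in LOT1. KPT lay close to the P0 samples (-7.46 and -7.73), and T-LM lay above them without overlap. The probe was well above background on 1 KPT array and on all 5 T-LM arrays, so the size of the difference rests on dim KPT values, and with the common floor it was 1.28 (adjusted p = 0.102). As fitted, the difference was 2.40 ± 0.26 (SE; adjusted p = 0.0174), and without LOT1 it was 2.49 and passed the threshold (adjusted p = 0.00801). Within slides it was 2.85 and 1.36.

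Ly6a (Sca-1) encodes a lipid-anchored surface protein known as a marker of progenitor cells. Its levels were -0.16, 0.15, -0.33, -0.41 and -0.67 in KPT replicates 1 to 5, 1.28, 1.28, 1.39 and 1.22 in T-LM replicates 2 to 5, and 0.72 in LOT1. Both groups lay above P0 (-1.36 and -1.49), and T-LM lay above KPT in every sample. The difference was 1.46 ± 0.19 (adjusted p = 0.0423; without LOT1 1.57, adjusted p = 0.00801), and within slides it was 1.38 and 1.39. Ly6c1, of the same gene family, had levels of 0.36 to 1.1 in KPT and of 1.47 to 2.53 in T-LM, a difference of 1.34 ± 0.21 that did not pass (adjusted p = 0.116; without LOT1 0.0134). Whether probes of this family also bind related transcripts was not tested.

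1700018G05Rik, a non-coding RNA, was not well above background on any KPT array and was well above it on all 5 T-LM arrays, at least 4.86-fold higher in T-LM (adjusted p = 0.012; without LOT1 0.00801). With the common floor the difference was 1.27 (adjusted p = 0.102). Its levels were -7.78 to -6.27 in KPT and -4.92 to -3.96 in T-LM, with the P0 samples at -4.96 and -6.22. In contrast with Dpep1 and Ly6a, P0 here lay above KPT, as it did for Gm9112 (-6.52 and -7.15).

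The other 8 of the 12 genes named as higher in T-LM did not pass with all samples, and for each of them the 5 T-LM values lay above the 5 KPT values. Nlrc5, the transactivator of MHC class I genes, differed by 1.23 ± 0.17 (adjusted p = 0.0854), although its second probe differed by -0.53 ± 0.16. Gdpd2, a glycerophosphodiester phosphodiesterase, differed by 1.77, and Hspb7, a small heat shock protein of muscle, by 3.06. Clec2d, a ligand of natural killer receptors, differed by 2.24, Dclk1, a microtubule-associated kinase, by 2.64, and C1s2, a paralogue of the complement protease C1s, by 1.04. Hspb7 and Dclk1 were well above background on 1 KPT array, Clec2d on 2 and Gdpd2 on 3, so these values rest in part on dim probes. Ifit3b, an interferon-induced gene, was at least 1.76-fold higher in T-LM by the limits of the KPT arrays, while with the common floor the difference was 0.11 (adjusted p = 0.834). It is described with its family below.

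No gene was called lower in T-LM with all 10 samples. Of the 12 with the smallest p in this direction, the values of 11 did not overlap between the groups, the exception being the neutrophil chemokine Cxcl3. Mbnl3, an RNA-binding regulator of splicing, had levels of -5.48, -5.61, -4.89, -4.05 and -4.30 in KPT replicates 1 to 5, -7.56, -6.74, -8.98 and -9.15 in T-LM replicates 2 to 5, and -7.62 in LOT1. It was above background on all KPT arrays and on no T-LM array, at least 4.89-fold lower in T-LM by the limits of the T-LM arrays (adjusted p = 0.116; without LOT1 0.0494). On the common floor of -5.62, which lies above all T-LM values and near the lowest KPT values of Mbnl3, the ratio is smaller. The P0 samples, at -8.35 and -8.12, were as dim as T-LM.

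Smaller differences in the same direction, none of which passed, were seen for enzymes and transporters. Slc39a4, a zinc importer, differed by -1.12 ± 0.20 (adjusted p = 0.136), and Fam20c, the kinase of the secretory pathway, by -0.87 ± 0.16 (adjusted p = 0.157). The KPT levels of Fam20c spanned only -0.91 to -0.80, while those of T-LM spanned -2.18 to -1.30. Tgfb2, a ligand of the TGF-beta family, differed by -0.88, Ctnnbip1, an inhibitor of beta-catenin, by -0.63, Aldh1b1, a mitochondrial aldehyde dehydrogenase, by -0.87, Acot3, an acyl-CoA thioesterase, by -0.97, Hvcn1, a proton channel, by -0.85, and Ppfibp2, a liprin, by -1.78. Itgax (CD11c) and Mmp12 (macrophage elastase), both made by myeloid cells, are described with the macrophage markers.

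**Figure D2:**
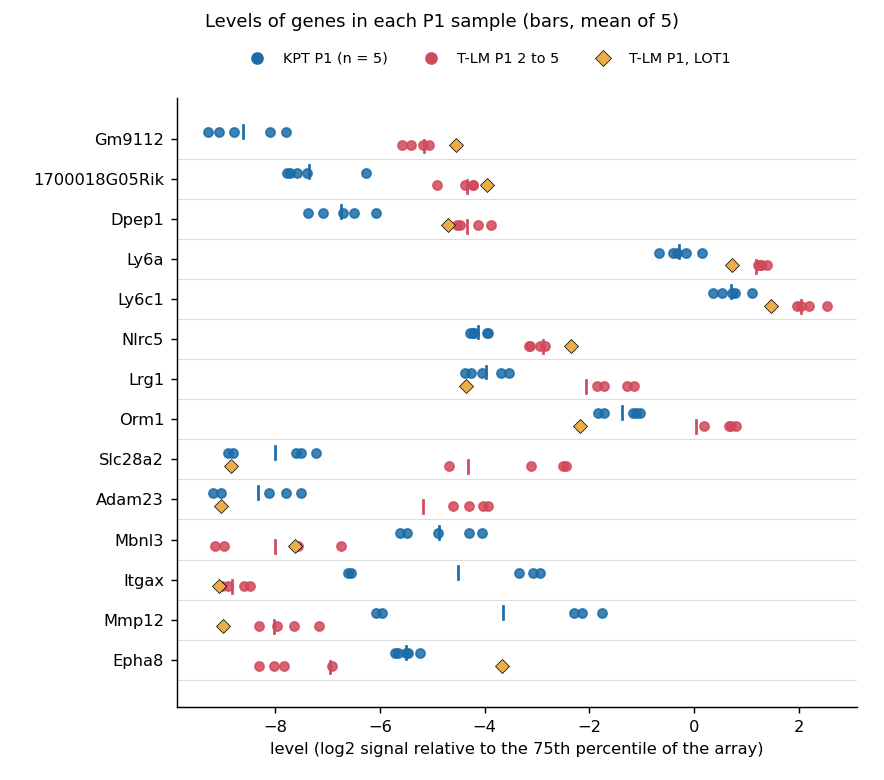
Levels of 14 genes in each P1 sample: the horizontal axis is the level (log2 signal relative to the 75th percentile of the array), points are samples and short bars are means of 5. LOT1 lies with T-LM for Gm9112, Dpep1 and Mbnl3 and near KPT for Lrg1, Slc28a2 and Adam23, and it is the highest sample for Epha8.

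Leaving out LOT1, which lay apart from the other T-LM samples, raised the number of probes that passed from 1 to 23 of 22915 (0.1%; 22 higher in T-LM, 0.096%, and 1 lower, 0.00436%). They hold 18 symbols higher in T-LM (0.145% of those tested) and 1, Epha8, lower (0.00803%). These genes were chosen after their values were seen and lie outside the rule for naming genes. Gm9112 was among them, and 1700018G05Rik, Dpep1 and Ly6a had passed at 0.05 with all samples. Since leaving out a sample that stood apart was itself decided with its values in view, the 23 are an alternative to the count of 1 and do not replace it.

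Of the genes called only without LOT1, Lrg1, Orm1, Orm2 and Ccl8 encode secreted proteins of inflammation. Such genes are those where LOT1 weakened the difference, so its place in them largely follows from this choice. Lrg1, a plasma glycoprotein of the acute phase, had levels of -4.37, -4.26, -4.05, -3.54 and -3.68 in KPT replicates 1 to 5, -1.72, -1.28, -1.14 and -1.86 in T-LM replicates 2 to 5, and -4.36 in LOT1. LOT1 lay inside the KPT range, and the difference went from 1.91 (adjusted p = 0.374) to 2.48 without it (adjusted p = 0.00533). The paralogues Orm1 and Orm2, acute-phase orosomucoids, differed by 1.96 and 2.14 without LOT1 (adjusted p = 0.00846 and 0.00801), with LOT1, at -2.17 and -1.22, below the KPT levels of Orm1 and within those of Orm2. Probes of these paralogues may share transcripts. Ccl8, a chemokine for monocytes, was at -3.08 to -2.38 in KPT, -1.10 to -0.85 in T-LM replicates 2 to 5 and -3.70 in LOT1 (difference without LOT1 1.69, adjusted p = 0.00801).

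Several genes in this group were not well above background on any KPT array. Slc28a2, a concentrative nucleoside transporter, had levels of -4.68, -3.11, -2.50 and -2.44 in T-LM replicates 2 to 5, while KPT (-8.91 to -7.22) and LOT1 (-8.85) were dim. Adam23, an integrin ligand without protease activity, was at -4.60 to -3.93 in T-LM replicates 2 to 5 and at -9.03 in LOT1. The macrophage scavenger receptor Marco (-5.66 to -4.80, LOT1 -7.99), Rarres1 (-6.01 to -5.46, LOT1 -8.79) and the inflammasome gene Nlrp2 (-6.10 to -4.82, LOT1 -9.18) showed the same order, with LOT1 near or among the KPT samples. Casp12, an inflammatory caspase, was above background on only 2 T-LM arrays, with levels of -7.99 to -7.62 in KPT, -6.71 to -6.53 in T-LM replicates 2 to 5 and -8.10 in LOT1. Of the other genes, Pik3r5, Crct1 and 9030619P08Rik differed by 1.52, 1.98 and 1.66 without LOT1.

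Epha8, a receptor for ephrins, was the gene called lower in T-LM without LOT1 (-2.26, adjusted p = 0.00977). It was well above background on 3 KPT arrays and, LOT1 included, on 1 T-LM array, so the size of its difference rests on dim values. Its levels were -5.71 to -5.24 in KPT, -8.31 to -6.92 in T-LM replicates 2 to 5 and -3.66 in LOT1, where it was above every KPT sample and level with the first P0 sample (-3.67). With all 10 samples the difference was -1.44 (adjusted p = 0.607), and with dim values raised to a common floor it turned to 0.26 (adjusted p = 0.937).

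A broad group of interferon-stimulated genes lay higher in T-LM, although no member was called by itself. Of 42 genes listed, 40 were on the array and 37 were tested. Of these, 25 had an unadjusted p under 0.05, all higher in T-LM, where 5.51% of all symbols did so in that direction. In 9 the samples did not overlap, against 1.04% of all symbols. The median difference was 0.71, that of all symbols 0.02. Of the 25 members well above background on all 10 arrays, whose inclusion did not depend on a group being bright, 16 had a p under 0.05 and the median was 0.70. The genes of the list share inducing factors and are not independent of each other, and the list was chosen with earlier results of these data known.

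The promoters of 3 genes of the Ifit family, whose proteins bind viral RNA, are shown. These genes carried large fitted differences, which for Ifit3b rest on dim KPT values. They were also picked because their promoters hold copies of the sequence bound by interferon-activated factors (the ISRE). That all 3 hold it follows from this choice. Each line gives the 250 bases before the start site from RefSeq, build GRCm38.p6, 5′ to 3′, with each match in capitals. A match is GAAA, any 2 bases and GAAA again, or TTTC, any 2 bases and TTTC, which is the same motif on the other strand.
Ifit3, chr19:34583279-34583528, plus strand: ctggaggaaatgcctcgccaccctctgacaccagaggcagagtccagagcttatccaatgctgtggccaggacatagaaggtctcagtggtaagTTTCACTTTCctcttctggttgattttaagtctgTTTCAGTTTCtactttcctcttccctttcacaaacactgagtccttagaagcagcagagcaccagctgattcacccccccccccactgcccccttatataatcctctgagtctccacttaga
Ifit3b, chr19:34607707-34607956, plus strand: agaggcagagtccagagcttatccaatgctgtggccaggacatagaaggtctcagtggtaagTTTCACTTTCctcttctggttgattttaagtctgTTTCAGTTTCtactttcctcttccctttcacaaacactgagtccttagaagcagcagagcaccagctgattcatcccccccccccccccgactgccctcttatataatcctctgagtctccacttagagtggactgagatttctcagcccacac
Ifit1, chr19:34640639-34640888, plus strand: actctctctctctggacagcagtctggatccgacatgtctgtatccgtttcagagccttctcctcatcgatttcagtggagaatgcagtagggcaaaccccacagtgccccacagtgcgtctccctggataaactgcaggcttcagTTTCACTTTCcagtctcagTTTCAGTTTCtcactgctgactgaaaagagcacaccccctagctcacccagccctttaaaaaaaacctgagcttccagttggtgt

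All 3 promoters held 2 matches, which began 156 and 122 bases before the start in Ifit3, 188 and 154 in Ifit3b, and 104 and 85 in Ifit1. Ifit3 and Ifit3b carry the same letters around both matches, as neighbouring copies of one gene, and their probes may share transcripts. Of the 37 members tested, 27 have 1 or more promoters in the table, and 15 of these 32 promoters held a match, compared with 2.98% of all 32851 promoters. The promoters of Oasl2, Xaf1 and Ifi44, described below, were among those without a match. A match is a description of the letters and not a measured site, and the motif was not used to choose the list.

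Ifit3 had levels of -5.55, -5.31, -6.60, -5.71 and -6.02 in KPT replicates 1 to 5, -4.27, -3.78, -3.09 and -3.72 in T-LM replicates 2 to 5, and -4.83 in LOT1. All T-LM samples were above all KPT samples, with LOT1 the lowest of them and beside the P0 samples (-4.95 and -5.15). The difference was 1.90 ± 0.34 (adjusted p = 0.136; without LOT1 2.12, adjusted p = 0.0262). Ifit3b was not above background on any KPT array (-8.14 to -7.08) and was above it on all T-LM arrays (-6.35 to -5.06), and Ifit1 differed by 1.95 ± 0.45 (adjusted p = 0.266).

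Sensors and effectors of the antiviral state also lay higher in T-LM, with LOT1 at differing places among the samples. Oas2, an enzyme that senses double-stranded RNA, was at -4.92, -4.61, -5.04, -5.91 and -5.32 in KPT replicates 1 to 5, -2.98, -2.84, -1.83 and -3.23 in T-LM replicates 2 to 5, and -4.18 in LOT1 (difference 2.15 ± 0.39, adjusted p = 0.148; without LOT1 2.44, adjusted p = 0.0214). LOT1 lay between KPT and T-LM replicates 2 to 5. Oasl2, of the same family, differed by 1.20 ± 0.25, Trim30a, a regulator of innate signalling, by 1.04 ± 0.22, and Xaf1, a pro-apoptotic interferon target, by 0.71 ± 0.16. For these 3 genes the groups did not overlap, and LOT1 was the lowest T-LM sample for Oasl2 and Xaf1 but not for Trim30a (-3.66). Stat2, the factor that carries the interferon signal, differed by 0.92 ± 0.23, with LOT1 (-1.66) among the KPT samples (-2.35 to -1.59). The guanylate-binding proteins Gbp7 and Gbp3 differed by 0.73 and 0.96, and Ifi44 by 0.93. The groups overlapped for Gbp3, where T-LM replicate 2 (-4.36) lay below KPT replicate 5 (-4.28). They also overlapped for Ifi44, where T-LM replicate 5 (-3.38) lay below KPT replicate 2 (-3.29).

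**Figure D3:**
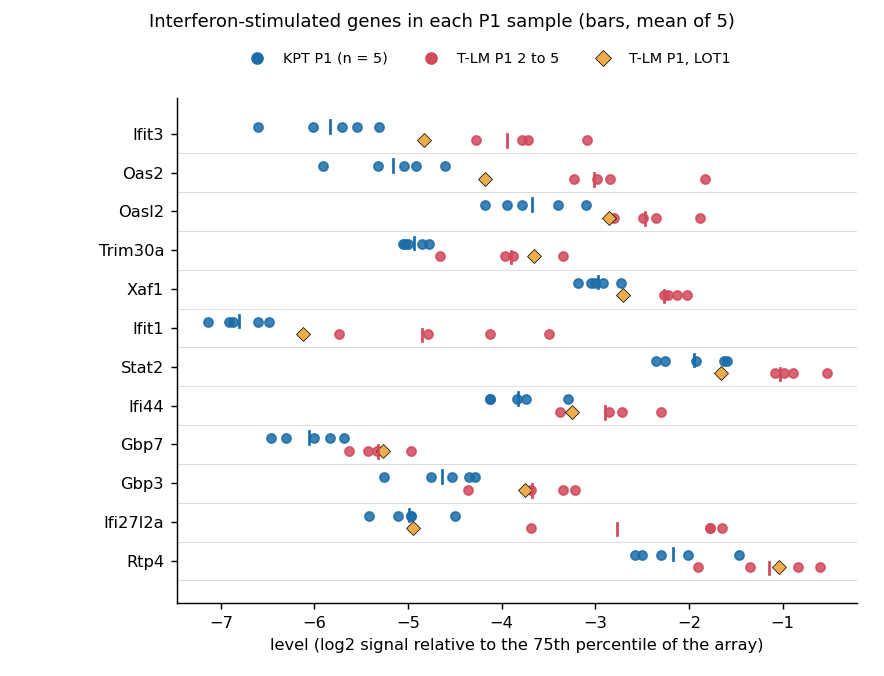
Levels of the 12 interferon-stimulated genes with the smallest p in each P1 sample: the horizontal axis is the level (log2 signal relative to the 75th percentile of the array), points are samples and short bars are means of 5. The T-LM samples lie to the right of KPT for most genes, and LOT1 lies between the groups or among KPT for Ifit3, Oas2, Stat2 and Ifi27l2a.

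Averaged over the list, the level was -3.50, -3.44, -3.86, -3.81 and -3.69 in KPT replicates 1 to 5, -2.98, -2.76, -2.40 and -2.84 in T-LM replicates 2 to 5, and -3.27 in LOT1. The P0 samples, at -3.67 and -3.61, were inside the KPT range. On slide 1 the T-LM sample lay at -2.84 against -3.50 for KPT, and on slide 5 LOT1 lay at -3.27 against -3.69. The number of members with a p under 0.05 ran from 14 to 30 of 37 over the alternatives that tested all 37, always higher in T-LM, and the median from 0.54 to 0.94. Of the MHC class I presentation genes, which interferons also raise, 3 of 15 (Nlrc5, H2-K1 and Tapbpl) had a p under 0.05, all higher in T-LM. The median of these 15 was 0.18, and 5.51% of all symbols were higher at this level.

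Acute-phase proteins divided the T-LM samples. Of 12 genes tested, 5 (Serpina3n, Serpina3m, Lrg1, Orm1 and Cp) had an unadjusted p under 0.05, all higher in T-LM, where 5.51% of all symbols were. The median difference was 1.48, or 2.33 without LOT1, when Lrg1 and Orm1 were called, as were 0.145% of all symbols in that direction. Serpina3m was dim in KPT (-9.25 to -7.91) and in LOT1 (-8.78), so its difference rests on dim values. The mean level of the list was -1.76, -0.64, -0.27 and -1.07 in T-LM replicates 2 to 5 and -4.45 in LOT1, which was below all KPT samples (-3.75, -3.77, -2.88, -2.62 and -2.46) and near P0 (-4.80 and -5.17). Serpina3n, an inhibitor of serine proteases, differed by 2.30 ± 0.55 (adjusted p = 0.285; without LOT1 2.75, adjusted p = 0.0423). Its levels were -5.11 to -3.86 in KPT, -2.94 to -0.72 in T-LM replicates 2 to 5, and -3.87 in LOT1.

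Saa1, Saa2 and Cfb, which encode secreted proteins, did not pass between the routes here. The study followed Saa2 and Cfb as blood markers, and Saa1 is in the same K-LM gene signature from which it took them. That signature rests on changes from the unpassaged line to the last passage of K-LM and on patient survival. T-LM against KPT is a different comparison, so the result here does not test that choice. Saa1, serum amyloid A1, had levels of -2.58, -2.68, -1.27, -1.36 and -0.54 in KPT replicates 1 to 5, 0.11, 1.35, 1.25 and 0.18 in T-LM replicates 2 to 5, and -3.56 in LOT1. T-LM replicates 2 to 5 were above every KPT sample and LOT1 was below every one, with a difference of 1.55 ± 0.87 (adjusted p = 0.631; without LOT1 2.41, adjusted p = 0.0851).

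Saa2 showed the same order, at -6.93, -6.90, -4.98, -5.64 and -4.87 in KPT replicates 1 to 5, -3.18, -3.03, -1.92 and -3.29 in T-LM replicates 2 to 5, and -8.77 in LOT1 (difference 1.83 ± 1.1, adjusted p = 0.67; without LOT1 3.01, adjusted p = 0.052). The genes Saa1 and Saa2 are near-identical, and their probes may not separate them. Cfb, complement factor B of the alternative pathway, was at -8.95, -8.39, -6.65, -5.08 and -5.23 in KPT replicates 1 to 5, -6.54, -3.38, -2.40 and -4.06 in T-LM replicates 2 to 5, and -7.77 in LOT1 (difference 2.03 ± 1.1, adjusted p = 0.625; without LOT1 2.77, adjusted p = 0.355). For Cfb the groups overlapped also without LOT1, through KPT replicates 4 and 5 and T-LM replicate 2. Saa2 and Cfb were each well above background on 2 KPT arrays and 4 T-LM arrays, so the sizes of their differences rest in part on dim values.

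Complement genes placed LOT1 differently from gene to gene. Of 14 genes tested, 5, among them C1s1, C3, C1ra and Serping1, had an unadjusted p under 0.05 and lay higher in T-LM, where 5.51% of all symbols did. None of them was called, and the median was 0.67. C1s1, a protease of the C1 complex, was at -1.40 to -1.01 in KPT and at -0.89 to -0.02 in T-LM with LOT1 included (difference 0.80 ± 0.18, adjusted p = 0.231). Its paralogue C1s2, named above, had similar levels, at -1.67 to -1.09 in KPT and -0.67 to -0.03 in T-LM. Probes of this pair may share transcripts, so they may not be separate results. C3, the central component, was at -0.53 to 0.97 in KPT and 1.01 to 2.14 in T-LM, where LOT1 (1.73) lay among the others (difference 1.22 ± 0.29, adjusted p = 0.285). C4b, of the classical pathway, was at -5.68 to -2.76 in KPT, -1.90 to -1.18 in T-LM replicates 2 to 5 and -5.98 in LOT1 (difference 1.82 ± 0.9, adjusted p = 0.585; without LOT1 2.70, adjusted p = 0.0757). LOT1 was thus above every KPT sample for C1s1 and C3 and below every one for C4b.

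Several markers of macrophages lay lower in T-LM. Of 19 genes of leukocytes and macrophages, 14 were tested, and 7 of them had an unadjusted p under 0.05 and were lower in T-LM, where 3.61% of all symbols were (median -1.53), while Aif1 (0.60) lay in the other direction. None was called. Laptm5, Cd53 and Adgre1 were above background on 2 or 3 KPT arrays and on at most 1 T-LM array, so they were tested only because some KPT samples were bright. Of the 6 members above background on all 10 arrays, a filter that leaves out genes dim in either group, 1 was lower and 1 higher (median -0.36), and with the common floor 5 of the 14 were lower (median -0.46). Lyz2, the lysozyme of macrophages, was at -4.16, -4.37, -2.15, -1.29 and -1.80 in KPT replicates 1 to 5, -5.57, -4.90, -4.98 and -4.87 in T-LM replicates 2 to 5, and -5.78 in LOT1 (difference -2.46 ± 0.59, adjusted p = 0.281). KPT replicates 3 to 5 stood well above replicates 1 and 2, and the T-LM samples lay below all 5. In such bulk samples, fewer cells of a type and less RNA per cell cannot be told apart.

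The same split within KPT ran through several other genes of the list, but not through all. Aif1 was at -4.08 and -3.72 in KPT replicates 1 and 2 and at -3.89 to -3.51 in replicates 3 to 5. C1qb was at -6.95 and -7.01 in replicates 1 and 2 and lower, at -7.54 to -7.17, in replicates 3 to 5. Mean levels of the list were -5.01 and -5.05 in KPT replicates 1 and 2, -3.03, -2.45 and -2.84 in replicates 3 to 5, and -5.72 to -4.59 in T-LM, against -6.18 and -5.94 in P0. The summed signal of the list, which its brightest genes dominate, spanned 2.13 to 3.03 on the log2 scale in KPT and 1.94 to 2.52 in T-LM. C1qa, C1qc and Cx3cr1 were above background on no array, and the pan-leukocyte marker Ptprc differed by -0.76 ± 0.56. Cd68, bright in P0 as well (1.14 and 0.70), differed by 0.05 ± 0.21. Of 9 lymphocyte markers, 3 were above background on at least 2 arrays.

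Itgax, the integrin CD11c of dendritic cells and macrophages, was at -6.62, -6.55, -3.35, -2.95 and -3.07 in KPT replicates 1 to 5 and at -9.08 to -8.49 in T-LM. It was above background on 4 KPT arrays and on no T-LM array, at least 6.42-fold lower in T-LM by the limits of the T-LM arrays (adjusted p = 0.136). Mmp12 was at -6.08, -5.96, -2.30, -1.76 and -2.15 in KPT and at -9.0 to -7.16 in T-LM, at least 11-fold lower by the same limits (adjusted p = 0.209). On the common floor of -5.62, which lies above the T-LM samples and KPT replicates 1 and 2 for both genes, these ratios are smaller. On slide 1, where KPT is represented by replicate 1, the T-LM minus KPT difference of Mmp12 was -1.56, and on slide 5, with KPT replicate 5 and LOT1, it was -6.85. Itgax and Mmp12 are outside the list and were named for a small p in this direction, so they are no separate support for it. Marco, a macrophage receptor also outside the list, lay the other way, with a difference of 2.38 ± 0.57 (adjusted p = 0.291, limma). Without LOT1 it was 2.94 (adjusted p = 0.00907), though Marco was above background on no KPT array. The part of host macrophages in these differences was not tested.

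Chemokines of myeloid cells moved with the macrophage markers. Of 10 CC chemokines tested, 4 (Ccl17, Ccl9, Ccl6 and Ccl3) had an unadjusted p under 0.05 and were lower in T-LM, and Ccl8 was higher. Over all symbols, 3.61% were lower and 5.51% higher at this level. Ccl6 was at -1.55 and -1.43 in KPT replicates 1 and 2, 1.93, 2.52 and 1.82 in replicates 3 to 5, -4.34, -2.06, -2.01 and -1.86 in T-LM replicates 2 to 5, and -8.71 in LOT1 (difference -4.45 ± 1.4, adjusted p = 0.407; without LOT1 -3.22). Of 10 CXC and CX3C chemokines, 5 (Cxcl3, Cx3cl1, Pf4, Cxcl2 and Cxcl16) were lower in T-LM at this level and none higher. Among members above background on all 10 arrays, none of 5 CC chemokines and 4 of 7 CXC and CX3C chemokines were lower. Cxcl3, a chemokine for neutrophils, was at -1.69, -1.03, -0.42, 0.02 and -0.13 in KPT replicates 1 to 5 and at -3.20 to -1.53 in T-LM (difference -1.87 ± 0.38, adjusted p = 0.209).

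Fibroblast markers did not separate the routes with all 10 samples, and LOT1 weighed heavily on this list. The mean level of 13 genes was -5.76, -5.72, -3.96, -2.27 and -2.37 in KPT replicates 1 to 5, -2.95, -1.93, -1.93 and -1.81 in T-LM replicates 2 to 5, and -6.28 in LOT1, against -7.13 and -7.05 in P0. T-LM replicates 3 to 5 were above every KPT sample, and replicate 2 lay below KPT replicates 4 and 5. The median difference of the 13 genes was 1.13, and 2.41 without LOT1. Col1a2, a chain of type I collagen, was at -2.97 and -2.82 in KPT replicates 1 and 2, at 2.48 and 2.42 in replicates 4 and 5, at 1.74 to 3.23 in T-LM replicates 2 to 5, and at -4.98 in LOT1 (difference 1.31 ± 1.7, adjusted p = 0.841). Fap, a surface protease of activated fibroblasts that was above background on 1 KPT array and 4 T-LM arrays, was the only one of the 13 with an unadjusted p under 0.05 (difference 2.82 ± 0.99, adjusted p = 0.442; without LOT1 3.74, adjusted p = 0.0494).

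Of 11 lung mesenchyme markers on the array, 5 were tested. Tbx4, Fgf10 and Hoxa5 had an unadjusted p under 0.05 and were higher in T-LM, where 5.51% of all symbols were, but Tbx4 and Fgf10 were above background on no KPT array and could be tested only because T-LM was bright. The 1 member above background on all 10 arrays, Foxf1, differed by -0.17 ± 0.15. Tbx4, a transcription factor of lung mesenchyme, was at -9.64 to -7.67 in KPT, -6.27, -5.05, -5.67 and -5.57 in T-LM replicates 2 to 5, and -8.64 in LOT1 (difference 2.43 ± 0.65, adjusted p = 0.34; without LOT1 3.03, adjusted p = 0.0216). Fgf10, a growth factor of the same cells, followed it, at -8.96 to -6.44 in KPT, -6.22 to -4.34 in T-LM replicates 2 to 5 and -8.79 in LOT1. Hoxa5 was at -7.04 to -5.72 in KPT and at -5.71 to -5.42 in T-LM, LOT1 (-5.50) included. The acute-phase mean of LOT1 was near that of P0. Its fibroblast mean (-6.28) lay between those of KPT replicates 1 and 2 (-5.76 and -5.72) and those of P0 (-7.13 and -7.05). Tbx4 was dim in LOT1 as in KPT, so its level there does not set LOT1 apart from KPT. The part of host fibroblasts in the route differences was not tested.

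**Figure D4:**
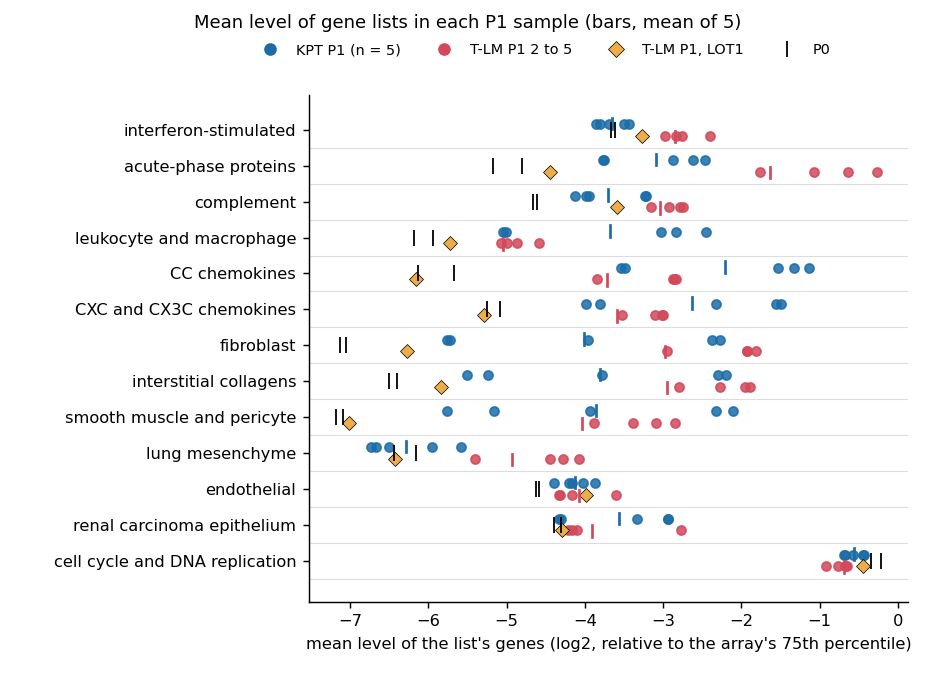
Mean level of 13 gene lists in each P1 sample: the horizontal axis is the mean level of the members above background on at least 2 arrays (log2, relative to the 75th percentile of the array), points are samples, coloured bars are means of 5 and black ticks are the P0 samples. The interferon-stimulated list is free of overlap between the routes, and the fibroblast and collagen lists spread over both. LOT1 lies near P0 in the acute-phase and chemokine lists and between P0 and the lowest KPT samples in the fibroblast list.

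Genes with the largest spread within a group showed the same samples at either end. The median range over samples was 0.66 among 10560 symbols in KPT and 0.76 among 11421 in T-LM, and 157 and 341 symbols had a range of 4 or more. In KPT the 6 widest were Col5a3 (range 8.35), Il11, Il6, Thbd, Tmem45a and Vegfc, each lower in replicates 1 and 2 than in replicates 4 and 5. Il6, the cytokine upstream of the acute-phase genes, was at -7.54, -7.62, -3.77, -1.0 and 0.0 in KPT replicates 1 to 5, -3.14, -0.29, -0.92 and -1.36 in T-LM replicates 2 to 5, and -8.85 in LOT1. In T-LM the widest included Mgp (10.42), Adamts2, Tmsb4x, Fkbp10 and Acta2, with LOT1 the lowest sample in all 5. Mgp, matrix Gla protein, was at 0.11, 2.80, 2.28 and 2.24 in T-LM replicates 2 to 5 and -7.62 in LOT1, while KPT spanned -5.25 to -1.26 (difference 3.25 ± 1.9, adjusted p = 0.639; without LOT1 5.15, adjusted p = 0.0574).

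Of the 52 gene lists compared in this way, none held a called member with all samples and 5 held at least 1 without LOT1. Lists of core tumour cell functions stayed near the median of all symbols. The 31 tested genes of the cell cycle and DNA replication had a median of -0.17, with 2 lower in T-LM at an unadjusted p under 0.05 and none higher. Over all symbols, 3.61% were lower and 5.51% higher. The 27 genes of hypoxia and glycolysis had a median of 0.09 (3 higher, none lower), and the 22 of cholesterol synthesis 0.05 (none in either direction). In the renal carcinoma epithelium list, T-LM replicate 2 stood apart at -2.77, beside -4.29 to -4.10 in the other T-LM samples, with Krt7, Cdh1 and Epcam at -5.45, -5.69 and -5.75, where the other T-LM samples were at -7.75 or below. Its array had the largest share of probes above background (55.3%). Of the 10 samples it also had the most members above background for lung epithelium (7), lung mesenchyme (8) and kidney tubule (6), though not for leukocytes. Whether its epithelial levels belong to the line or to the array was not tested.

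The last question was whether the differences between routes after 1 passage were those after 6. After passage 6 (P6; KPT 5 samples and T-LM 4), 1811 of 20660 probes passed (8.77%), of which 1302 were higher in T-LM. The difference between routes at P1 minus that at P6 passed for 242 of 24094 probes (1.0%), 73 positive and 169 negative. Without LOT1 it passed for 279 of 23922, 107 positive and 172 negative. Of 145 symbols among the 242 probes measured in both fits, 46 were higher in T-LM at P1 and lower at P6, 85 were lower at P1 and higher at P6, and 14 had the same sign and a larger difference at P6. A gene called for this contrast has to differ between the passages, so these counts describe the calls and are no test of their own, and 131 of the 145 had been called at P6.

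Dpep1 had the smallest p of all named genes in this contrast, with the limit that only 1 KPT array at P1 was above background. It was 2.40 higher in T-LM at P1 and 2.08 lower at P6 (-2.08), where KPT had a mean level of -3.62 and T-LM of -5.70, a difference of differences of 4.48 ± 0.33 (SE; adjusted p = 2.32e-06). Ly6a turned likewise, from 1.46 to -0.89 (2.35 ± 0.27, adjusted p = 0.00017), as did Ly6c1, from 1.34 to -0.89. Islr, a secreted protein of mesenchymal cells, went from 1.40 to -2.20.

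The median difference of the interferon-stimulated genes was -0.32 at P6, with 2 of 36 members called higher and 4 lower in T-LM, where 8.22% and 2.84% of all symbols were. The contrast passed for 5 of 37 members with a positive value (0.443% of all symbols) and for 1 with a negative one (0.94%). Ifit3 went from 1.90 to -1.17 (3.07 ± 0.42, adjusted p = 0.000415) and Ifit1 from 1.95 to -1.04 (adjusted p = 0.00938). Xaf1 went from 0.71 to -1.10 (adjusted p = 0.000377).

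Of 14 macrophage markers, 5 passed the contrast, all with a negative value, as did 5 of 10 CC chemokines, against 0.94% of all symbols. Pf4, a platelet and macrophage chemokine, was -3.34 ± 1.2 at P1 and 7.41 at P6 (adjusted p of the contrast 0.000282), Ccl6 was -4.45 and 5.78, Mmp12 was -4.37 and 4.42, and Itgax was -4.31 and 3.16. Without LOT1 the P1 differences were -2.38 for Pf4, -3.22 for Ccl6, -4.12 for Mmp12 and -4.24 for Itgax. At P6, KPT had a mean Mmp12 level of -8.30 and T-LM of -3.88. Lyz2 went from -2.46 to 2.93 (adjusted p = 0.000845). None of 13 fibroblast markers and none of 12 acute-phase genes passed, and at the shares given above for all symbols few or none would be called in lists of this size. The median difference of the fibroblast markers was 1.13 at P1 (2.41 without LOT1) and 2.05 at P6, and that of the acute-phase genes was 1.48 over 12 genes at P1 (2.33 without LOT1) and 2.35 over 9 at P6.

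**Figure D5:**
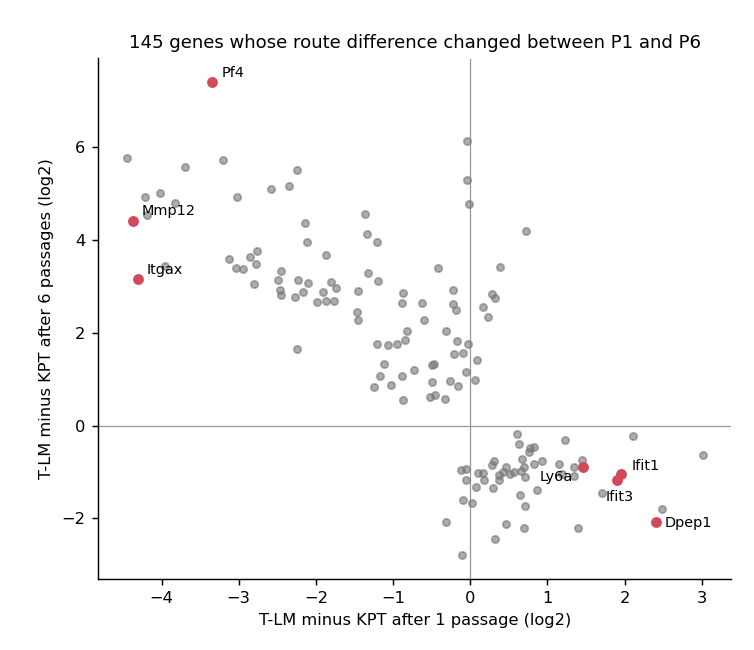
Difference between routes after 1 and after 6 passages: each point is 1 of 145 genes called for the contrast of the differences, the horizontal axis is T-LM minus KPT at P1 and the vertical axis T-LM minus KPT at P6 (both log2). Dpep1, Ly6a, Ifit1 and Ifit3 lie at the lower right, and Pf4, Mmp12 and Itgax at the upper left.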

How the data were processed

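Total RNA of the cultured lines was labelled with Cy5 and hybridised to Agilent SurePrint G3 mouse arrays (70 arrays of 65 RNA samples). The authors deposited scanner files with background-corrected signal intensity per spot, and a table of log2 values which here matched quantile-normalised median signals without background subtraction (largest difference 0.105). Of 62976 spots, 3671 control spots and outlier-flagged spots were left out, leaving 55681 probes. Levels were log2 intensities minus the 75th percentile of each array over the 12219 probes well above background on all arrays. Groups were compared with limma 3.58.1 in R 4.3.3 (2-sided, Benjamini-Hochberg adjustment, threshold 0.01), for probes well above background on at least 2 of the 10 arrays, without covariates.

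Symbols came from RefSeq accessions (28020 probes, 21150 symbols; 27661 probes have none), each at its brightest probe. For a probe above background in only 1 group, "at least N-fold" sets the mean of the bright group against the detection limit of the dim one. Named genes were the called genes without overlap, filled to 12 in each direction by the smallest p, called members of the lists and the 6 widest ranges in each group; exceptions are stated where they occur, and some genes are not reported here. The members and lists were chosen with earlier results of these data known. Replicate numbers did not pair the samples (correlations of deviations 0.0401 to 0.223). Labels do not say that the samples of a group came from separate animals, so p-values measure the spread between these samples. The number of arrays limits the precision. The alternatives were other scalings, background corrections, filters, slide terms, covariates and left-out samples, and the test was checked on simulated data. As mean signals were not used, the normexp correction took median signals. The columns of the authors' comparisons were not part of the files used.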

Additional observations from a re-analysis of the deposited data

Results flagged for a closer look

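In 124 pairs of a gene or list and a group, 24 samples lay far from the others of their group, and chance alone flags about 1 group in 20. LOT1 was the far sample in 20 of them. Many of these genes were named because they were called only without LOT1 or had the widest range in T-LM, so the choice of genes favoured LOT1, and the count cannot be read against that rate. It was the lowest T-LM sample for Ly6a (0.72), Hspb7 (-5.86), Thbd (-8.93), Mgp (-7.62), Tmsb4x (-7.30), Fkbp10 (-9.04) and Acta2 (-6.85). The same held for the acute-phase genes Saa1 (-3.56), Saa2 (-8.77), Orm1 (-2.17) and Lrg1 (-4.36) and for Ccl8 (-3.70), Pik3r5 (-5.98), Crct1 (-7.99), Adam23 (-9.03), Marco (-7.99), Rarres1 (-8.79) and Casp12 (-8.10). It was also the lowest for the mean of the fibroblast markers (-6.28) and of the CXC and CX3C chemokines (-5.29).

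T-LM replicate 2 was the far sample for Ppfibp2 (-5.99) and for the mean of the renal carcinoma epithelium markers (-2.77), where it was the highest. Its array had the largest share of probes above background (55.3%). In KPT, replicate 4 was the highest for 1700018G05Rik (-6.27) and replicate 5 the highest for Crct1 (-4.67).

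The difference between routes at P1 minus that at P6 passed the threshold for 14 of the named genes. It was positive for Gm9112 (4.20), 1700018G05Rik (3.65), Dpep1 (4.48), Ly6a (2.35), Nlrc5 (1.55), Hspb7 (2.97), Ifit3b (3.17), Ly6c1 (2.23) and 9030619P08Rik (2.21). It was negative for Slc39a4 (-2.44), Itgax (-7.47), Fam20c (-1.42), Cxcl3 (-4.56) and Mmp12 (-8.79). At P1, Gm9112, 1700018G05Rik and Ifit3b were above background on no KPT array, Dpep1 and Hspb7 on 1, and Itgax and Mmp12 on no T-LM array, so the sizes for these genes rest on dim values.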

How the results depend on the processing

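The count of 1 probe called between the routes was 6 at an adjusted p of 0.05 or less, 1 with the percentile taken over all probes, and 2 with quantile normalisation or the deposited values. It was 0 with the normexp correction, with no filter on dim probes, with probes above background on all 10 arrays, with a floor on dim probes, with outlier spots kept and with an RNA quality covariate (the level of long mRNAs relative to ribosomal protein mRNAs), where limma gave between 1234 and 2244 probes at an unadjusted p under 0.05. With all arrays of the first set in the fit it was 129, with slide as a fixed term 89 and with slide as a random block 132. Leaving out 1 sample gave 0 to 23, the highest without LOT1. With array weights, chosen after seeing the data, it was 13, and without T-LM replicate 2 and LOT1, also chosen then, 103. The replicate number as a block over replicates 2 to 5 gave 0 (2386 at an unadjusted p under 0.05), as did the same samples with no block (2297), and the samples share only a number. The count for the difference between P1 and P6 was 648 at 0.05, 154 with no filter and 279 without LOT1. Of 1082 values of 41 named genes, 964 kept their direction and side of the threshold, 99 passed only under the alternative and 18, all of Gm9112, no longer passed. Epha8 alone changed sign, to 0.26 with a floor on dim probes. The percentile over all probes moved the median of all symbols from 0.02 to -0.13. The causes were not tested.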
